A study of Mus musculus with 30 samples.

Results

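The 6 genes described here are the regulators of differentiating spermatogonia Kit, Sohlh1, Sohlh2, Dmrt1, Dmrtb1 and Taf4b, chosen by gene symbol for their known roles, with earlier results of these data known. They are 6 of the 65534 rows of a table of transcript abundance from mouse testis. The table covers Prdm9 mutants (Prdm9-/-), heterozygotes (Prdm9+/-) and wild types (Prdm9+/+) at 8, 12 and 16 days post partum (dpp), all male, on a C57BL/6J background with less than 10% 129S1/SvImJ. Prdm9 encodes the histone methyltransferase that marks the sites of meiotic recombination, and its loss stops spermatocytes in meiotic prophase; the labels do not name the allele. There were 5 Prdm9-/- libraries at each age, called mutants below. They were set against 2 Prdm9+/- and 3 Prdm9+/+ libraries at 8 dpp, 4 and 1 at 12 dpp, and 3 and 2 at 16 dpp, called non-mutants together at each age. Each of the 30 libraries came from 1 animal, and the animals came from 14 litters. Values are TPM, which scales each transcript by its length and each library to the same total, so that levels of different genes can be compared within a library; depth cannot be read from TPM.

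Spermatogonia leave the undifferentiated pool in response to retinoic acid, switch on the receptor tyrosine kinase KIT, divide several times as differentiating spermatogonia and then enter meiosis. SOHLH1 and SOHLH2 are germ-cell basic helix-loop-helix (bHLH) transcription factors that can pair with each other, bind E-boxes in DNA and are needed for spermatogonia to differentiate. DMRT1 and DMRTB1 (also called DMRT6) are DM-domain transcription factors of spermatogonia; in the mouse DMRT1 holds back meiotic entry and also acts in Sertoli cells, and DMRTB1 acts in late differentiating spermatogonia. TAF4B is a germ-cell-enriched form of TAF4, a subunit of the general transcription factor TFIID. In the mouse the first wave of spermatogenesis moves through these stages in step, so that the germ cells are mainly spermatogonia at first and include early and then later spermatocytes as age advances.

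All 6 genes were matched by Ensembl identifier, and all were above 1 TPM in all 30 libraries. On GRCm38, with the GENCODE M21 annotation, Kit (ENSMUSG00000005672) is on the plus strand at chr5:75574916-75656722 and Sohlh1 (ENSMUSG00000059625) on the minus strand at chr2:25842995-25847248. Sohlh2 (ENSMUSG00000027794) is at chr3:55182028-55209957 on the plus strand and Dmrt1 (ENSMUSG00000024837) at chr19:25505618-25604329 on the plus strand. Dmrtb1 (ENSMUSG00000028610) is at chr4:107676290-107684230 on the minus strand. No other annotated gene overlaps an exon of any of the 6 genes. The values are of whole genes and do not separate exons or isoforms.

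The bases just before the annotated starts are shown because SOHLH1 and SOHLH2 bind E-boxes. Whether the matches go with the course of the genes with age was not tested. The sequences are those of RefSeq on GRCm38.p6, cut to the part before the GENCODE gene start, in 5′ to 3′ direction of the gene. Both strands were searched for the E-box CANNTG, which includes CACGTG, and each match is in capitals. The windows are chr2:25847249-25847498 for Sohlh1, chr3:55181794-55182027 for Sohlh2, chr5:75574737-75574915 for Kit and chr4:107684231-107684480 for Dmrtb1.
Sohlh1: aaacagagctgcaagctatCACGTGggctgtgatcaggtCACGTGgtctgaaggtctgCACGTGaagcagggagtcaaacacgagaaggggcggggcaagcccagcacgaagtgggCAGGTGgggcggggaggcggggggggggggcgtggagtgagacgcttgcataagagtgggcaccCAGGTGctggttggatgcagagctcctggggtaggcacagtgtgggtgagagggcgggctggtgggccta
Sohlh2: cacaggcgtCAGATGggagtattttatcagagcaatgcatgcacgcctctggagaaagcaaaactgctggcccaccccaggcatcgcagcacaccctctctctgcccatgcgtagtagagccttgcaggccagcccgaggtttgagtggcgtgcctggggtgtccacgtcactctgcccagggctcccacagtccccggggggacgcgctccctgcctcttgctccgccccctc
Kit: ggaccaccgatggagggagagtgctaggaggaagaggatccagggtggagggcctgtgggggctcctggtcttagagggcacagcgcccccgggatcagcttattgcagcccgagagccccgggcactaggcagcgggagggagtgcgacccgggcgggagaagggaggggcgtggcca
Dmrtb1: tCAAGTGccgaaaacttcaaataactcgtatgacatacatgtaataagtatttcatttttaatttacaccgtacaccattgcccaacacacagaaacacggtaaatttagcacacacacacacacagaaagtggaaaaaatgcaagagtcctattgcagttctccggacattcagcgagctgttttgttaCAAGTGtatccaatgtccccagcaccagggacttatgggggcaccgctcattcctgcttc

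The 250 bases before Sohlh1 hold 5 E-boxes, and 1.15% of 32851 RefSeq promoters cut to the same window length hold at least as many; 66.2% hold at least 1. The 3 Sohlh1 E-boxes farthest from the start, which begin 231, 211 and 192 bases before it, all read CACGTG. At least 1 CACGTG is present in 6.02% of promoters of that length and as many as 3 in 0.0609%. The Dmrtb1 window holds 2 E-boxes, and 31.8% of promoters of that length hold at least as many. The 234 bases before Sohlh2 hold 1 E-box, against 63.8% of promoters with at least 1. No CANNTG lies in the 179 bases before Kit, where 53.9% of promoters of that length have one. The DM-domain core ACAATGT, searched on both strands, is in none of the 4 windows, and in 2.56% of promoters over 250 bases. These matches describe letters only, and a window without a match says nothing of binding elsewhere.

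The labels name both spermatocytes and germ cells enriched from testes as the material; the tubules were digested with Liberase and interstitial cells were washed off. Germ cell RNA was present, with the germ cell marker Ddx4 between 67.1 and 285 TPM over the 30 libraries. Sertoli and peritubular cell RNA was present as well: Sox9, a Sertoli cell factor, lay between 51.4 and 121 TPM, and Acta2, a smooth muscle actin of myoid cells, between 457 and 949 TPM. In such bulk RNA, a change in the number of cells of a type and a change in RNA per cell cannot be told apart. Prdm9 itself, which checks the labels, was at 6.89 to 12.8 TPM in mutants and 19.7 to 34.4 TPM in non-mutants at 16 dpp. At 12 dpp the pair of litter 13 went against its labels: the library labelled mutant had 19.2 TPM of Prdm9 and its litter mate labelled non-mutant 9.16 TPM, whereas the other 4 mutants had 6.34 to 8.16 TPM and the other 4 non-mutants 16.0 to 23.3 TPM. The 12 dpp values of litter 13 stand last in each list of 12 dpp values below, under their labels. At 8 dpp Prdm9 overlapped between the groups, with 4.77 to 8.98 TPM in mutants and 1.82 to 6.10 TPM in non-mutants, so that it does not check the labels at that age. One 8 dpp library also stands apart: the mutant of litter 3 was the highest of the 5 mutants of that age for all 6 genes. Its germ cell markers summed to 1270 TPM, against 462 to 747 TPM in the other 8 dpp mutants. The 8 dpp mutant of litter 10 was the lowest of the 5 for 5 of the 6 genes, with a germ cell marker sum of 462 TPM.

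Dmrt1 had the highest mean TPM of the 6 genes in each of the 6 groups (mutants and non-mutants at 3 ages), from 172 to 216 TPM. Sohlh1 came second in 5 of the 6 groups, with means from 58.1 to 81.9 TPM. In non-mutants at 16 dpp Dmrtb1 (66.0 TPM) stood above Sohlh1 (55.9 TPM), and the ranges of these neighbours overlapped. Kit, Sohlh2, Taf4b and Dmrtb1 lay close together at 8 dpp, with means from 25.1 to 31.4 TPM in mutants and 24.3 to 26.2 TPM in non-mutants, and their ranges overlapped. By 16 dpp Sohlh2 was the lowest of the 6 in both classes, at 35.8 TPM in mutants and 39.1 TPM in non-mutants. Over the 30 libraries Dmrtb1 varied most, 6.73-fold between its lowest and highest library, and Dmrt1 least, 1.93-fold.

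**Figure D1:**
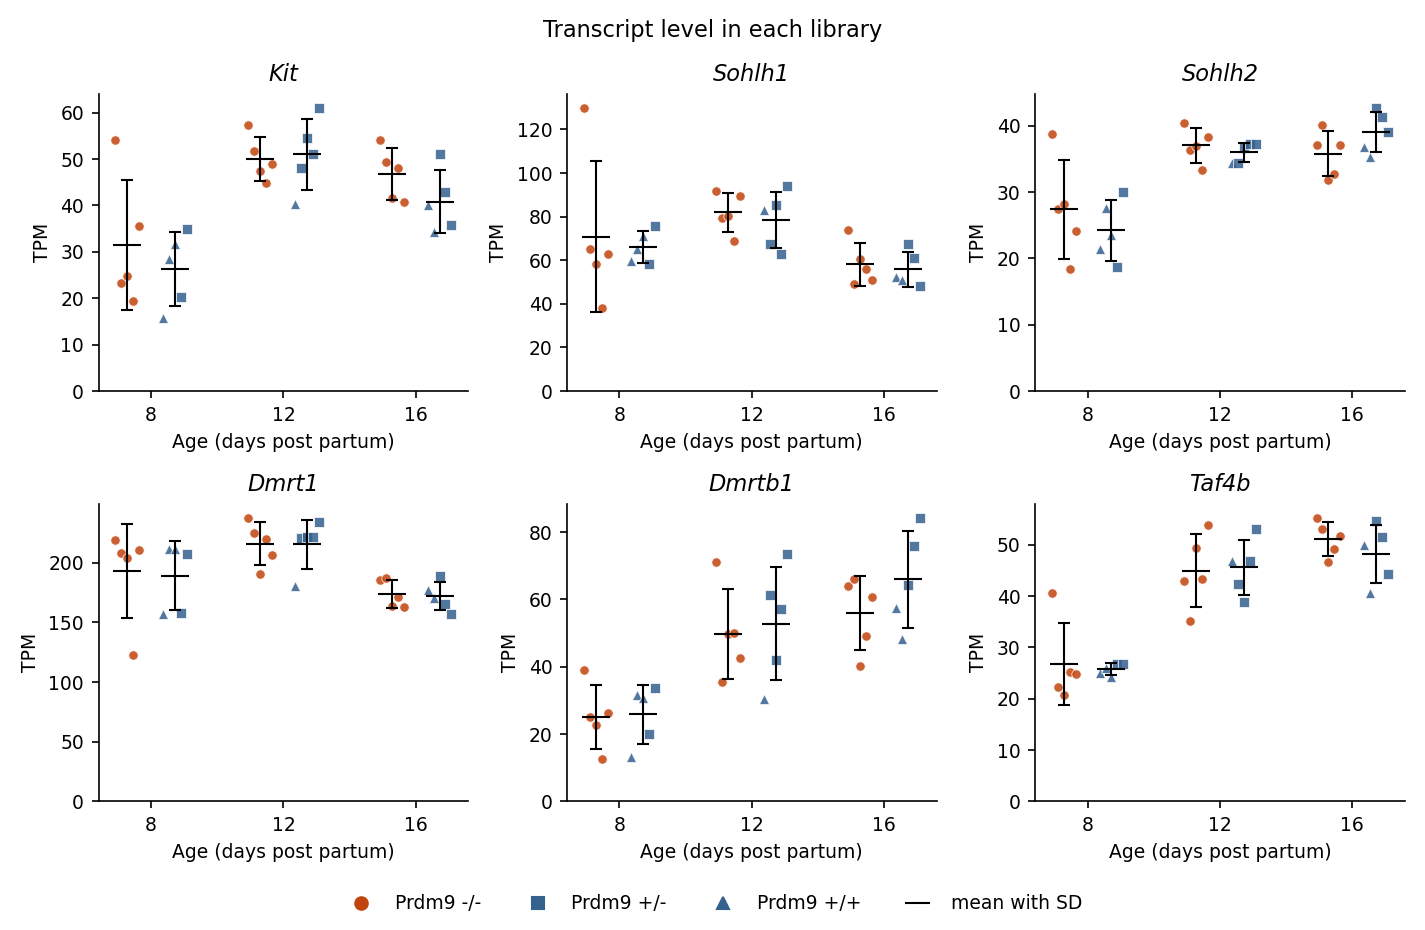
TPM of each of the 6 genes (vertical axis, from 0) in each library against age in days post partum (horizontal axis), with Prdm9-/- mutants to the left of Prdm9+/- and Prdm9+/+ animals; points are libraries and bars are mean and SD of 5. Dmrtb1 and Taf4b have higher means at 12 and 16 dpp than at 8 dpp, Sohlh1 and Dmrt1 have their highest means at 12 dpp, and mutants and non-mutants overlap for each gene at each age.

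The age comparison asks when the regulators change as the first wave advances. Kit, Sohlh2, Dmrtb1 and Taf4b rose at 12 dpp against 8 dpp in mutants and in non-mutants, while Sohlh1 and Dmrt1 were not called in either class. A gene was called when its adjusted p in limma, fitted over all 20021 rows that passed the filter on low values, was under 0.05 after Benjamini-Hochberg adjustment; differences are on the log2(TPM + 1) scale. In mutants 4 of 6 genes were called, all higher, where 29.7% of all rows were called and 17.5% were called higher. In non-mutants it was the same 4 of 6 genes, with 32.5% of all rows called and 20.3% called higher. The share of all rows called higher depends on scaling: 2965 rows were higher and 3082 lower in mutants after median-ratio scaling, against 3496 higher and 2452 lower in TPM as deposited. In non-mutants these counts were 3207 and 3217 after median-ratio scaling, against 4067 and 2430 as deposited. The median of the 6 genes was 0.60 in mutants and 0.68 in non-mutants, beside medians over all rows of 0.06 and 0.09. Without litter 13, whose Prdm9 levels went against the labels, the same 4 genes were called in each class. With only Prdm9+/+ libraries as non-mutants, 1 of them at 12 dpp, Taf4b alone of the 4 kept its call in non-mutants. The sum of 11 germ cell markers moved with age as well: at 12 dpp it lay between 1030 and 1450 TPM in mutants and between 1170 and 1490 TPM in non-mutants, and at 8 dpp between 462 and 1270 TPM in mutants and between 521 and 903 TPM in non-mutants. Its part in these rises was not tested.

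Kit, the receptor, was at 54.1, 23.3, 24.8, 19.4 and 35.5 TPM in the 8 dpp mutants, against 15.8, 28.5, 31.8, 20.2 and 34.9 TPM in the 8 dpp non-mutants. At 12 dpp it was at 57.3, 51.6, 47.4, 44.8 and 48.9 TPM in mutants, against 40.4, 48.0, 54.5, 51.2 and 61.1 TPM in non-mutants. At 16 dpp the values were 54.1, 49.3, 41.7, 48.1 and 40.8 TPM in mutants, against 40.1, 34.3, 51.2, 42.9 and 35.8 TPM in non-mutants. Every 12 dpp non-mutant was above every 8 dpp non-mutant, as in 13% of all rows, whereas among mutants the 8 dpp library of litter 3, at 54.1 TPM, overlapped the 12 dpp range. The difference between 12 and 8 dpp was 0.75 ± 0.199 (SE) on the log2 scale in mutants (adjusted p = 0.00515, limma) and 0.98 ± 0.199 in non-mutants (adjusted p = 0.00039). At 16 dpp against 12 dpp no call was made: Kit differed by -0.10 in mutants (adjusted p = 0.814) and by -0.32 in non-mutants (adjusted p = 0.268). Kit is also made by Leydig and mast cells. The summed Leydig markers lay at 290 to 509 TPM in mutants and 234 to 511 TPM in non-mutants at 12 dpp, and at 396 to 811 TPM in mutants and 479 to 613 TPM in non-mutants at 8 dpp. The 8 mast cell markers summed to 13.6 to 20.5 TPM in mutants and 18.3 to 23.6 TPM in non-mutants at 12 dpp, and to 13.1 to 20.9 TPM in mutants and 14.1 to 30.6 TPM in non-mutants at 8 dpp. Of the defining mast cell markers, Fcer1a was at 0 in all 30 libraries and Cpa3 reached at most 1.85 TPM. Only 2 of the 8, Hdc and Tpsab1, passed the filter on low values. Hdc, the histamine-making enzyme, rose at 12 dpp against 8 dpp by 0.45 in mutants (adjusted p = 0.00327, limma) and by 0.37 in non-mutants (adjusted p = 0.0136). At 16 dpp against 12 dpp, where Kit was not called, Hdc rose by a further 0.94 and 0.62. Tpsab1 was called in neither step. At 16 dpp against 8 dpp Tpsab1 was lower in non-mutants, by 0.97 (adjusted p = 0.0417, limma), and was not called in mutants. The part of Leydig and mast cells in the Kit values was not tested.

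Of the bHLH pair, Sohlh2 was called at 12 against 8 dpp and Sohlh1 was not, which by itself shows no difference in course. Sohlh1 stood at 130.0, 65.2, 58.1, 38.0 and 62.8 TPM in 8 dpp mutants, against 59.5, 65.3, 70.9, 58.3 and 75.5 TPM in non-mutants. At 12 dpp Sohlh1 was at 91.7, 79.4, 80.4, 68.8 and 89.3 TPM in mutants, against 82.9, 67.6, 85.2, 62.9 and 94.0 TPM in non-mutants. By 16 dpp it was at 73.8, 49.2, 60.8, 56.2 and 50.9 TPM in mutants, against 52.2, 51.1, 67.5, 60.9 and 48.0 TPM in non-mutants. The highest mean was thus at 12 dpp in both classes, and neighbouring ages overlapped. The 12 against 8 dpp difference was 0.32 in mutants (adjusted p = 0.211) and 0.24 in non-mutants (adjusted p = 0.343). Without the 8 dpp mutant of litter 3, the value in mutants was 0.56 with an adjusted p of 0.00326, past the threshold. The 16 against 12 dpp difference was -0.50 in mutants (adjusted p = 0.0818) and -0.48 in non-mutants (adjusted p = 0.0652), neither of them called.

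Sohlh2 was at 38.7, 27.5, 28.2, 18.4 and 24.2 TPM in 8 dpp mutants, against 21.5, 27.5, 23.6, 18.7 and 30.01 TPM in non-mutants. It was at 40.5, 36.4, 36.9, 33.3 and 38.4 TPM in 12 dpp mutants, against 34.4, 34.4, 36.6, 37.3 and 37.3 TPM in non-mutants. The 16 dpp values were 37.2, 40.1, 31.9, 32.7 and 37.2 TPM in mutants, against 36.9, 35.3, 42.7, 41.3 and 39.1 TPM in non-mutants. All 12 dpp non-mutants were above all 8 dpp non-mutants, as in 13% of all rows, and so were all 16 dpp non-mutants, as in 18.5%. The 8 dpp mutant of litter 3 again overlapped the later mutants. Sohlh2 rose by 0.46 ± 0.127 in mutants (adjusted p = 0.00659) and by 0.57 ± 0.127 in non-mutants (adjusted p = 0.000987) at 12 dpp against 8 dpp. At 16 dpp against 12 dpp it differed by -0.05 in mutants (adjusted p = 0.85) and 0.11 in non-mutants (adjusted p = 0.562).

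The 2 DM-domain genes also differed in their calls. Dmrt1 was at 219, 208, 204, 123 and 210.5 TPM in 8 dpp mutants, against 157, 211, 212, 158 and 208 TPM in non-mutants. At 12 dpp its levels were 238, 225, 191, 219.8 and 206 TPM in mutants, against 180.3, 221, 222, 221 and 234 TPM in non-mutants. At 16 dpp they were 186, 187, 164, 171 and 163 TPM in mutants, against 177, 170.4, 189, 166 and 157 TPM in non-mutants. All 5 mutants at 16 dpp were below all 5 at 12 dpp, which holds for 5.77% of all rows, and in non-mutants the ranges overlapped through the single 12 dpp Prdm9+/+ library at 180.3 TPM. Dmrt1 fell by 0.32 ± 0.117 (SE) on the log2 scale at 16 dpp against 12 dpp in non-mutants (adjusted p = 0.0475), the only call of the 6 genes in that step, where 21.8% of all rows were called and 13% were called lower. After median-ratio scaling 2550 rows were higher and 1721 lower in that step, against 1777 higher and 2595 lower as deposited; Dmrt1 then lost its call, at -0.24 with an adjusted p of 0.0911. The call was also lost without litter 13 and on leaving out any of 18 of the 30 single libraries in turn, among them each of the 4 Prdm9+/- libraries at 12 dpp and each of the 5 mutants at 16 dpp. In mutants the same step was -0.31 (adjusted p = 0.0871), and none of the 6 genes was called there, where 12.1% of all rows were. Sertoli cells also express Dmrt1. Their summed markers were at 6950 to 8140 TPM in mutants and 6790 to 7470 TPM in non-mutants at 16 dpp, against 8050 to 8610 TPM and 7210 to 8730 TPM at 12 dpp, and 6 of 15 Sertoli markers fell in non-mutants in that step while 4 of 15 did in mutants. Among all rows in mutants, 1180 of 20021 were called lower in that step. None of the 15 Sertoli markers rose in either class, and the part of Sertoli cells in the Dmrt1 values was not tested.

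Dmrtb1 was the most variable of the genes. It was at 39.0, 25.1, 22.7, 12.5 and 26.2 TPM in 8 dpp mutants, against 13.2, 31.6, 30.6, 20.0 and 33.7 TPM in non-mutants. At 12 dpp the levels were 71.1, 35.5, 49.8, 50.0 and 42.5 TPM in mutants, against 30.4, 61.2, 42.0, 57.1 and 73.4 TPM in non-mutants. At 16 dpp it was at 64.0, 66.2, 40.2, 49.1 and 60.7 TPM in mutants, against 57.4, 48.2, 64.2, 75.9 and 84.2 TPM in non-mutants. Every 16 dpp library was above every 8 dpp library of its class, as were 17.6% of all rows in mutants and 18.5% in non-mutants. Dmrtb1 rose by 1.0 ± 0.26 in mutants (adjusted p = 0.00401) and by 1.02 ± 0.26 in non-mutants (adjusted p = 0.00332) at 12 dpp against 8 dpp. In non-mutants this lay close to the rise of Kit, and without litter 3 it was 0.81 (adjusted p = 0.0124), against 0.82 for Kit. With only Prdm9+/+ libraries as non-mutants, 1 of them at 12 dpp, the Dmrtb1 difference was 0.36. Of the non-mutants, 2 were Prdm9+/- at 8 dpp and 4 at 12 dpp, and the part of genotype in this rise was not tested. The further differences at 16 dpp against 12 dpp, 0.18 in mutants (adjusted p = 0.724) and 0.35 in non-mutants (adjusted p = 0.354), were not called.

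Taf4b (ENSMUSG00000054321) lies on the plus strand at chr18:14783245-14900359. At 8 dpp it was at 40.6, 22.3, 20.7, 25.3 and 24.8 TPM in mutants, against 25.1, 25.99, 24.1, 26.9 and 26.7 TPM in non-mutants. At 12 dpp it was at 43.0, 35.1, 49.4, 43.3 and 53.8 TPM in mutants, against 46.9, 42.4, 38.9, 46.9 and 53.1 TPM in non-mutants. At 16 dpp it was at 55.2, 53.0, 46.7, 49.2 and 51.7 TPM in mutants, against 49.9, 40.6, 54.7, 51.4 and 44.3 TPM in non-mutants. The 8 dpp libraries were apart from all later ones, except the 8 dpp mutant of litter 3 at 40.6 TPM, which reached into the 12 dpp range. In non-mutants 13% of all rows were higher without overlap at 12 dpp than at 8 dpp. At 16 dpp against 8 dpp this held for 18.5% of all rows in non-mutants and 17.6% in mutants. Taf4b rose by 0.75 ± 0.127 in mutants (adjusted p = 4.07e-05) and by 0.80 ± 0.127 in non-mutants (adjusted p = 2.07e-05) at 12 dpp against 8 dpp. At 16 dpp against 12 dpp it differed by 0.20 in mutants (adjusted p = 0.352) and 0.08 in non-mutants (adjusted p = 0.705).

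Set against 8 dpp, the 16 dpp levels of the same 4 genes were higher in both classes. 47.1% of all rows were called in mutants and 51.3% in non-mutants, and 26.8% and 26.9% were called higher. Dmrtb1 had the largest difference, 1.19 in mutants (adjusted p = 0.000401) and 1.37 in non-mutants (adjusted p = 6.06e-05). Taf4b followed with 0.95 in mutants (adjusted p = 4.26e-07) and 0.87 in non-mutants (adjusted p = 1.31e-06). Kit differed by 0.65 in mutants (adjusted p = 0.00825) and 0.66 in non-mutants (adjusted p = 0.00648), and Sohlh2 by 0.41 (adjusted p = 0.00891) and 0.68 (adjusted p = 4.67e-05). The Kit call in non-mutants was lost with only Prdm9+/+ or only Prdm9+/- libraries as non-mutants, with an adjusted p of up to 0.145. Sohlh1 and Dmrt1 were not called; their values were -0.18 and -0.12 in mutants, and -0.24 and -0.13 in non-mutants. Without the 8 dpp mutant of litter 10, Dmrt1 in mutants was at -0.28 with an adjusted p of 0.0143, past the threshold. These differences reuse the libraries of the other steps.

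The genotype comparison asks whether loss of Prdm9 goes with other levels of the regulators of the earlier stage. None of the 6 genes was called between mutants and non-mutants at any age, by limma after adjustment or at an unadjusted p under 0.05. All rows together gave 0% called at 8 dpp and 12 dpp and 3.26% at 16 dpp, with 417, 225 and 2473 rows at an unadjusted p under 0.05. At 16 dpp the difference for Kit was 0.20, with a 95% interval from -0.21 to 0.61, and for Taf4b 0.09, from -0.17 to 0.35. For Sohlh1 it was 0.05, from -0.33 to 0.43, and for Sohlh2 -0.12, from -0.38 to 0.14. Dmrt1 differed by 0.02, from -0.22 to 0.26, and Dmrtb1 by -0.23, from -0.76 to 0.30. Differences of any size inside these intervals remain compatible with the values of the 5 libraries in each group. The intervals at 8 and 12 dpp reached at most 0.62 above and -0.59 below 0, both at a gene with wide groups, Kit at 8 dpp and Dmrtb1 at 12 dpp. Among litter mates at 16 dpp, Kit was higher in the mutant in 5 of 5 litters, by 0.08 to 0.29, and Taf4b in 4 of 5, with differences from -0.06 to 0.22. Sohlh2 was lower in the mutant in 4 of 5 litters, with differences from -0.33 to 0.12, and so was Dmrtb1, from -0.62 to 0.20. Sohlh1 and Dmrt1 were each higher in the mutant in 3 of 5. The median of all rows at 16 dpp was itself 0.07, and rows with 1 sign in all 5 litters were not counted. At the earlier ages Kit was higher in the mutant in 2 of 4 litters (8 dpp) and in 2 of 5 (12 dpp). With litter as a fixed block, Kit at 16 dpp still had an adjusted p of 0.625 in limma.

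No difference in age step between the classes was called for any of the 6 genes. The 12 against 8 dpp step of Kit differed by -0.23 in mutants minus non-mutants (95% interval -0.81 to 0.34), and the other 5 genes had differences of step from -0.11 to 0.08. The 16 against 12 dpp step differed by 0.22 for Kit, -0.16 for Sohlh2 and -0.17 for Dmrtb1, each with an interval across 0. Over all rows, 0% were called for the first step and 1.35% for the second, with 367 and 1462 rows at an unadjusted p under 0.05; none of the 6 genes was under 0.05 in either. Between heterozygotes and wild types none of the 6 was called, and 0% of 18668 rows were, with 1972 at an unadjusted p under 0.05. One of those 1972 was Dmrtb1, higher in Prdm9+/- by 0.46 ± 0.201 (SE; adjusted p = 0.456, limma).

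**Figure D2:**
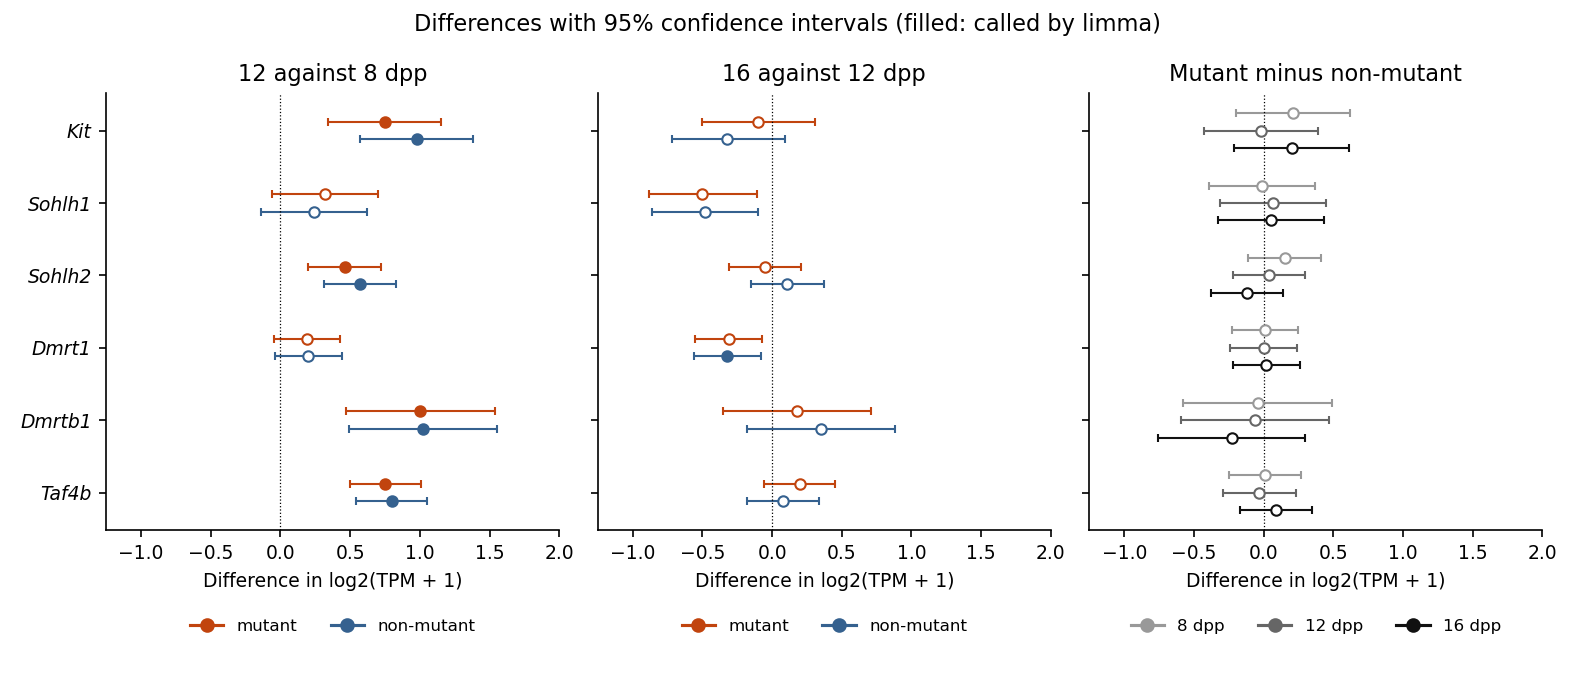
Differences in log2(TPM + 1) (horizontal axis) for each gene (vertical axis) with 95% confidence intervals from limma: 12 against 8 dpp and 16 against 12 dpp in mutants and non-mutants, and mutants minus non-mutants at each age; filled points were called at an adjusted p under 0.05. Kit, Sohlh2, Dmrtb1 and Taf4b are called in both classes in the first step, Dmrt1 in non-mutants in the second, and none between mutants and non-mutants.

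Ratios of (TPM + 1) were also taken between 2 transcripts of the same library, in which the library's scaling cancels except for the added 1. Sohlh1 over Sohlh2 was at 0.97, 0.29, 0.91, 0.76 and 0.44 on the log2 scale in 16 dpp mutants, against 1.16, 1.11, 1.1, 1.03 and 1.2 in 12 dpp mutants. In non-mutants the same ratio was at 0.49, 0.52, 0.65, 0.55 and 0.29 at 16 dpp, against 1.25, 0.95, 1.2, 0.74 and 1.31 at 12 dpp. All 16 dpp ratios were below all 12 dpp ratios in each class. The difference of -0.44 in mutants and of -0.59 in non-mutants each had p = 0.00794 in an exact two-sided permutation test, the smallest p that 5 against 5 libraries can give. Adjusted over the 21 ratio tests, both were at 0.0417. Leaving out any 1 library of the step left the difference between -0.52 and -0.35 in mutants and between -0.68 and -0.54 in non-mutants, but raised the adjusted p. The smallest p that 5 against 4 libraries can give is larger. For each ratio, a call lost in this way does not by itself show dependence on 1 library. The call in mutants was lost whichever library was left out, at 0.0556 to 0.0833, and that in non-mutants with any except the 12 dpp Prdm9+/+ library, at 0.0476 to 0.0556. At 12 against 8 dpp the ratio differed by -0.14 in mutants (adjusted permutation p = 0.536). In non-mutants it differed by -0.33 (adjusted permutation p = 0.104), and neither was called. All ratio tests permuted single libraries and took no account of litter, and no litter alternative was run for them. At 8 dpp, litter 8 gave replicates 2 and 3 of both the mutants and the wild types, which these tests take as independent.

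Kit over Zbtb16, a receptor of differentiating against a transcription factor of undifferentiated spermatogonia, was at 0.83, 1.02, 0.55, 0.68 and 0.50 in 12 dpp mutants, against 0.00, 0.03, -0.13, -0.02 and 0.36 in 8 dpp mutants. The groups were apart, with a difference of 0.67 (exact permutation p = 0.00794, adjusted 0.0417), a call lost with any 1 of these libraries left out. In non-mutants the ratio was at 0.15, 0.98, 1.04, 0.92 and 0.83 at 12 dpp, against -0.55, 0.25, 0.16, -0.51 and 0.23 at 8 dpp. These groups overlapped through the 12 dpp Prdm9+/+ library, and the difference of 0.87 had an adjusted exact permutation p of 0.0952. By 16 dpp the mean ratio was 1.29 ± 0.238 in mutants and 1.09 ± 0.174 in non-mutants (SD, n = 5 each), with adjusted permutation p-values of 0.0556 and 0.204 for the step from 12 dpp. Kit was not called in that step, and Zbtb16 fell by 0.67 in mutants (adjusted p = 0.0255) and by 0.62 in non-mutants (adjusted p = 0.0251).

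Taf4b over its paralogue Taf4 was at 0.65, 0.39, 0.91, 0.48 and 0.82 in 12 dpp mutants, against 0.48, 0.10, -0.06, -0.21 and -0.03 in 8 dpp mutants, where litter 3 gave the overlap. In non-mutants it was at 1.11, 0.63, 0.35, 0.36 and 0.60 at 12 dpp, against 0.06, 0.24, 0.07, 0.03 and 0.10 at 8 dpp, and the groups were apart. The difference was 0.60 in mutants (exact permutation p = 0.0159, adjusted 0.0556) and 0.51 in non-mutants (exact permutation p = 0.00794, adjusted 0.0417), where the call was lost with any 1 library left out except the 12 dpp Prdm9+/+ one. Taf4 itself was not called, at 0.16 in mutants (adjusted p = 0.334) and 0.28 in non-mutants (adjusted p = 0.0672). None of the 9 ratio tests of mutants against non-mutants passed, and the lowest adjusted permutation p among them was 0.333.

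**Figure D3:**
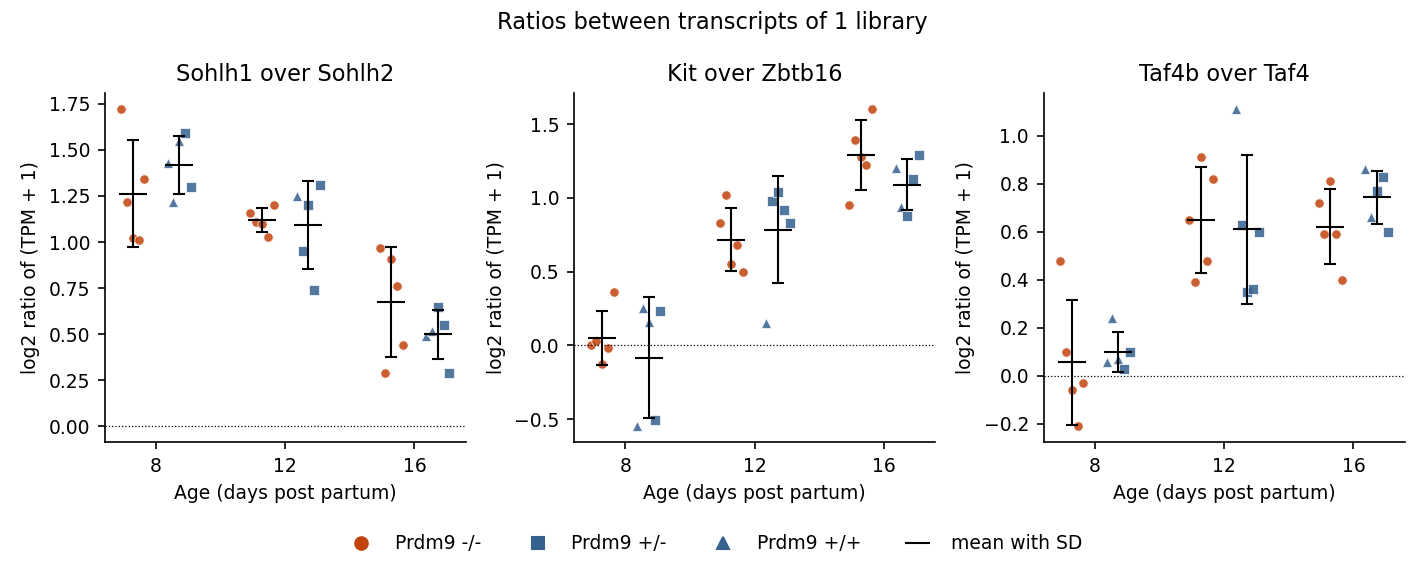
Log2 ratios of (TPM + 1) between transcripts of the same library (vertical axis) against age in days post partum (horizontal axis), with mutants left of non-mutants; points are libraries and bars are mean and SD of 5. Sohlh1 over Sohlh2 is lower at 16 dpp than at 12 dpp in both classes without overlap, and Kit over Zbtb16 and Taf4b over Taf4 have higher means at 12 dpp than at 8 dpp.

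Likeness between genes was measured as the root mean square difference of log2(TPM + 1), each gene centred on its own mean, over the 30 libraries; it is a description, since these libraries share age groups, scaling and cell makeup. Among the 6 genes the pairs with the smallest values were Sohlh1 with Dmrt1 (0.241) and Sohlh2 with Taf4b (0.258), followed by Kit with Sohlh2 (0.267). The largest value was that of Sohlh1 with Dmrtb1 (0.71). The partner genes Sohlh1 and Sohlh2 were at 0.375, and the DM-domain genes Dmrt1 and Dmrtb1 at 0.651. Among 13282 other named genes, the one most like Kit was Galnt6 (0.156), and those most like Sohlh1 were Prex1 (0.123) and Vwa2 (0.142). Wdr36 (0.118) and Supt16 (0.121) were nearest to Sohlh2, and Pgm1 (0.105) to Dmrt1. The nearest to Dmrtb1 were Tdrkh (0.247), a Tudor-domain gene of the piRNA pathway, and Tinf2 (0.251). This measure grows with a gene's own spread, which was largest for Dmrtb1 (SD of 0.682 over the 30 libraries) and smallest for Dmrt1 (0.217). The order of the pairs of the 6 genes thus depends on spread as well as on course. For the same reason the nearest-gene values are not compared between the 6 genes. Pramel1 (0.128) and Uba6 (0.135) were nearest to Taf4b.

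The other genes of each pathway were described from lists. Of all rows, 29.7% were called in mutants and 32.5% in non-mutants at 12 against 8 dpp. At 16 against 12 dpp these shares were 12.1% and 21.8%. In mutants 3496 of 20021 rows were called higher and 2452 lower in the first step, and 1243 and 1180 in the second. In non-mutants these counts were 4067 and 2430, and 1777 and 2595. List counts near these shares are not particular to a list. Of 29 genes of the KIT ligand and signal relay, 4 rose and 4 fell in mutants and 6 rose and 4 fell in non-mutants at 12 dpp against 8 dpp, with medians of 0.05 and 0.04. Mtor, a growth kinase, rose by 0.64 in mutants and 0.65 in non-mutants. Pik3r1, a regulatory subunit of PI3 kinase, fell by 0.60 in mutants and 0.66 in non-mutants. At 16 dpp against 12 dpp none rose, and 5 fell in mutants and 9 in non-mutants. Among them were the kinase gene Akt1, which fell by 0.31 in mutants and 0.48 in non-mutants, and the phosphatase gene Ptpn11, which fell by 0.38 and 0.50. The ligand gene Kitl, named here for its role and not by rank, fell by 0.60 in mutants (adjusted p = 0.0144) and by 0.58 in non-mutants (adjusted p = 0.0109), and is itself a Sertoli cell gene.

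Of 16 tested bHLH partners, Id inhibitors and SOHLH-linked genes, 4 rose and 1 fell in mutants and 4 rose and 2 fell in non-mutants at 12 dpp against 8 dpp. Lhx8, a homeobox gene linked to SOHLH1 in mouse oocytes, rose by 1.18 in mutants and 1.37 in non-mutants, and Stra8, the retinoic acid-induced gene of meiotic entry, by 1.40 and 1.31. Of these 16, 2 rose and 3 fell in mutants and 2 rose and 4 fell in non-mutants at 16 dpp against 12 dpp. The E-protein genes Tcf3 and Tcf12 fell, by 0.30 and 0.25 in mutants and by 0.44 and 0.34 in non-mutants. Id4, an inhibitor of bHLH factors, rose by 0.81 in mutants (adjusted p = 0.00277) and by 1.28 in non-mutants (adjusted p = 5.2e-06). Id4 is a marker of undifferentiated spermatogonia, and it was the 1 of 23 tested that rose in that list, while 7 fell in mutants, with a median of -0.45, and 5 fell in non-mutants, with a median of -0.36. Gfra1, the receptor of the stem cell factor GDNF, fell by 0.73 in mutants and 0.62 in non-mutants, and its partner Ret by 0.68 and 0.61.

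In the DMRT family outside Dmrt1 and Dmrtb1, 5 of 8 tested rose in each class at 12 dpp against 8 dpp, with medians of 1.40 in mutants and 1.24 in non-mutants. Dmrtc2, a germ-cell member, rose by 1.71 in mutants and 1.85 in non-mutants, and by a further 1.0 and 1.70 at 16 dpp against 12 dpp. Several of the others are near-identical Dmrtc1 copies, between which reads may have been split, so their separate values are uncertain. Of the same 8, 4 rose and 1 fell in mutants and 3 rose and 1 fell in non-mutants at 16 dpp against 12 dpp; the one that fell was Dmrt3, by 0.87 in mutants (adjusted p = 0.00879) and by 0.70 in non-mutants (adjusted p = 0.0217). Of 17 tested TFIID and TBP family genes besides Taf4b, 6 rose in mutants and 11 in non-mutants at 12 dpp against 8 dpp, and none fell. The largest of these named was Taf7l, a germ-cell form of TAF7, which rose by 0.95 in mutants and 1.06 in non-mutants, followed by Taf9b at 0.62 and 0.82. In the later step, 16 dpp against 12 dpp, 1 rose in mutants and 3 in non-mutants; of these Taf9 rose by 0.66 in mutants and 1.59 in non-mutants.

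Of 18 other tested genes of differentiating spermatogonia, 10 rose and 1 fell in mutants and 11 rose and 1 fell in non-mutants at 12 dpp against 8 dpp, with medians of 0.50 and 0.58. Tex101 rose most clearly, by 2.40 in each class, and by a further 1.17 in mutants and 1.36 in non-mutants at 16 dpp against 12 dpp. Tex101 and Ddx4 are also in the list of germ cells in general. The list is therefore not confined to genes particular to differentiating spermatogonia. Ccnd2, a cyclin of spermatogonia, fell by 0.99 in mutants and 0.87 in non-mutants at 12 dpp against 8 dpp. At 16 dpp against 12 dpp 2 rose and 2 fell in mutants and 3 rose and 3 fell in non-mutants; Dnmt3a, a DNA methyltransferase, fell by 0.50 and 0.57. Of 17 tested genes of retinoic acid signalling, 3 rose and 2 fell in mutants and 4 rose and 2 fell in non-mutants at 12 dpp against 8 dpp. Aldh1a2, which makes retinoic acid, rose by 2.1 in mutants and 2.14 in non-mutants, and Aldh1a1, a related enzyme of Sertoli cells, fell by 0.56 and 0.67. In the later step 4 rose and 1 fell in mutants and 3 rose and 2 fell in non-mutants, and Cyp26a1, which breaks retinoic acid down, rose by 1.18 in mutants and 1.01 in non-mutants.

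The stages that follow moved further. Of 20 genes of meiotic entry and early prophase, 18 rose in mutants and 19 in non-mutants at 12 dpp against 8 dpp, with medians of 1.72 and 1.91, against 0.60 and 0.68 for the 6 regulators. The mutated gene Prdm9 is itself in this list. It was called in non-mutants, at 1.72 (adjusted p = 1.29e-05, limma), and not in mutants, at 0.26 (adjusted p = 0.503). Of 11 tested pachytene genes, 4 rose in mutants and 11 in non-mutants at 16 dpp against 12 dpp, with medians of 0.57 and 3.70. At 16 dpp 10 of those 11 were lower in mutants than in non-mutants, with a median of -3.27, whereas the median of all rows was 0.07. Ldhc, the sperm lactate dehydrogenase, differed by -5.21 (adjusted p = 1.43e-09, limma). In the same comparison no gene of the KIT, DMRT, retinoic acid or undifferentiated lists was called. One gene was called lower in each of the bHLH, TFIID and differentiating lists: Tcfl5, a bHLH gene of spermatocytes, at -0.69 (adjusted p = 0.0331), Taf9 at -0.88 (adjusted p = 0.0119) and the germ cell RNA helicase gene Ddx4 at -0.61 (adjusted p = 0.0276). In that comparison the 6 regulators lay within 0.23 of 0.

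**Figure D4:**
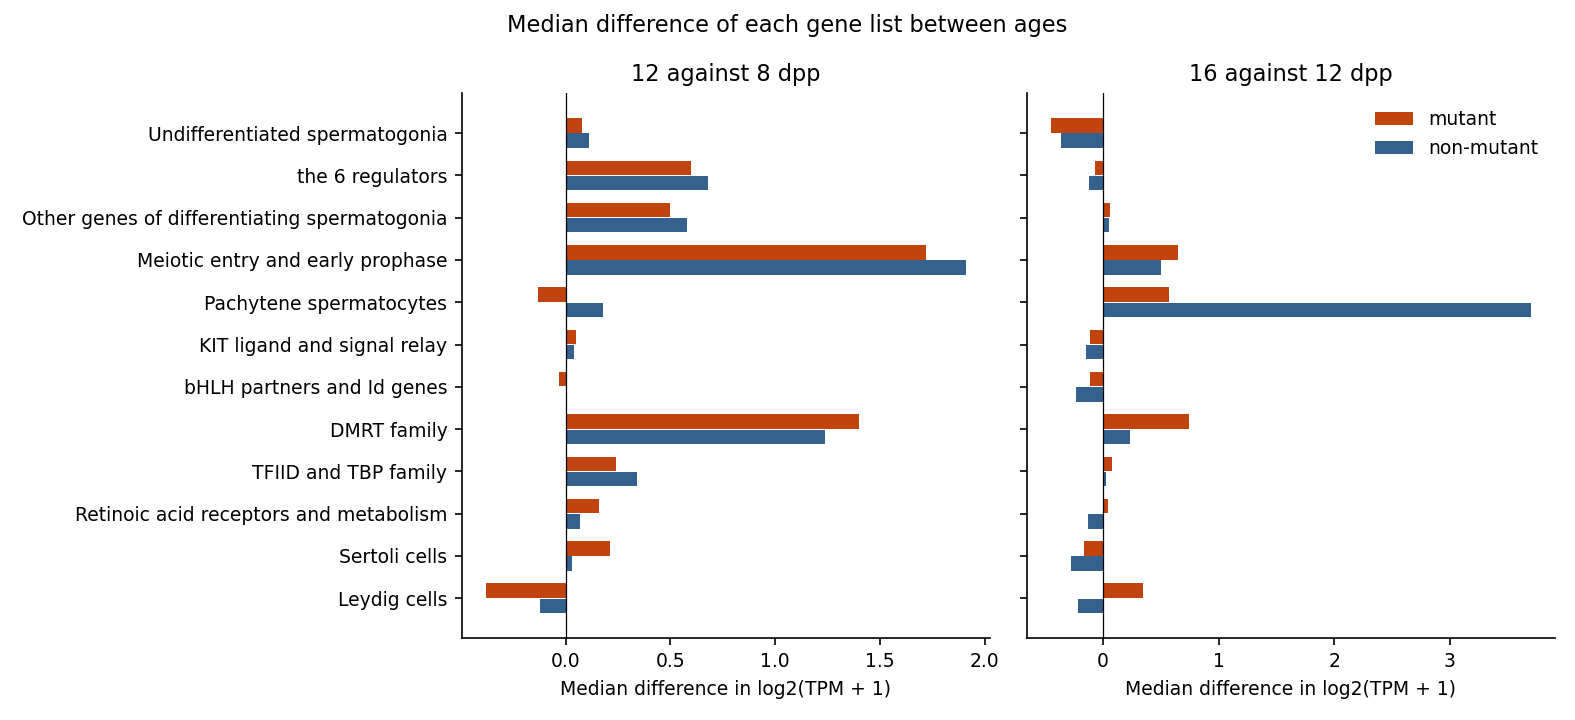
Median difference in log2(TPM + 1) (horizontal axis; the panels have different scales) of each gene list (vertical axis) at 12 against 8 dpp and 16 against 12 dpp, with mutants above non-mutants; the other lists leave out the 6 regulators. The 6 regulators have medians of 0.60 in mutants and 0.68 in non-mutants in the first step, below the list of meiotic entry, and pachytene genes reach 0.57 and 3.70 in the second.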

How the data were processed

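The authors deposited TPM, with 2 decimals, for 30 libraries of polyadenylated RNA. The submitters' processing notes name Bowtie 1.0.0, RSEM 1.2.8 and mm10 (GRCm38) without role or order; whether read strand was used is not given in the sources used here. The part of the table held has 65534 rows and lacks 3.23 to 3.95% of each library's TPM total. TPM keeps no depth, so no counting interval can be given. GENCODE M21 gave symbols and positions for 37709 of 38906 Ensembl rows.

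limma-trend (limma 3.58.1, R 4.3.3) was fitted to log2(TPM + 1) of 20021 rows above 1 TPM in at least 5 libraries, in 1 fit of 6 groups. Benjamini-Hochberg adjustment ran over all rows, and a row was called under 0.05. The scale understates the change of low genes. Heterozygotes were set against wild types over 18668 rows with age as a factor. Ratios were tested by exact two-sided permutation of single libraries (scipy 1.17.1), without litter pairs or blocks. The fit was tested on simulated data.

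All 6 genes are named in every comparison. From each list described, up to 4 called genes with the smallest adjusted p are named, and the 2 nearest genes by likeness among those with a mean of at least 1 TPM. Members and lists were chosen with earlier results of these data known. The table's header line gives each animal's litter. In 17 pairs of mutant and non-mutant litter mates, deviations from group means correlated at 0.063 to 0.39, with a median of 0.22 and 13 over 0.1, against a median of -0.0835 in 58 other pairs. Litter was therefore tried as a replicate block, together with other pseudocounts, filters, scalings, control genotypes, libraries fitted and each library left out. Litters 3 and 10 were left out as alternatives chosen after seeing the data. A few genes that the naming rule would give are not reported here.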

Additional observations from a re-analysis of the deposited data

Results flagged for a closer look

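Of 36 sets of 5 libraries (6 genes in 6 groups), 3 held a library far from the other 4, where chance gives about 1 in 20. Dmrt1 in the 8 dpp mutant of litter 10 was at 122.93 TPM, against 204.39 to 219.25 TPM in the other 8 dpp mutants. Taf4b in the 8 dpp mutant of litter 3 was at 40.56 TPM, against 20.66 to 25.28 TPM in the others. Dmrt1 in the only Prdm9+/+ library at 12 dpp was at 180.34 TPM, against 220.74 to 234.37 TPM in the 4 Prdm9+/- libraries of that age.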

How the results depend on the processing

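The 4 rises at 12 dpp against 8 dpp in mutants kept their call in all 41 alternatives run. In non-mutants Kit, Sohlh2 and Dmrtb1 kept theirs in 42 of 43 and Taf4b in all 43; with only Prdm9+/+ libraries, 1 at 12 dpp, the count of genes called was 1. At 16 dpp against 8 dpp the 4 calls held in all 41 alternatives in mutants, and in all 43 in non-mutants except for Kit, which held in 41. No direction reversed among called values.

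The single call at 16 dpp against 12 dpp in non-mutants (Dmrt1) held in 19 of 43 alternatives. The count of genes called there was 0 without a filter, with median-ratio scaling, with quantile normalization, with only Prdm9+/+ or only Prdm9+/- libraries and without litter 13. It was 2 with only the groups compared, without litter 3 and without litter 10. In mutants the count of 0 became 2 with only the groups compared, 1 without litter 3 and 2 without litter 10. Leaving out 1 library at a time gave 0 to 2 in each class. The cause was not tested.

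With 1 library left out, ratio tests of 5 against 4 libraries can only give a larger smallest p. The differences stayed between 0.591 and 0.744 for Kit over Zbtb16 at 12 against 8 dpp in mutants, between 0.749 and 1.023 in non-mutants (past the threshold only without the Prdm9+/+ library of 12 dpp), between 0.388 and 0.576 for Taf4b over Taf4 in non-mutants, and between -0.518 and -0.348 in mutants and -0.678 and -0.535 in non-mutants for Sohlh1 over Sohlh2 at 16 against 12 dpp.

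With litter as a fixed or random block the count of genes called between mutants and non-mutants stayed 0 at each age, and the random block left 4 called in each class at 12 against 8 dpp; the block changed no other count. A fixed litter block cannot be fitted to the age steps, since each litter has 1 age. No litter block was run for heterozygotes against wild types.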
